A study of Mus musculus with 2 samples.

Results

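The Mir181 family of the mouse comprises 6 microRNA (miRNA) genes, arranged as 3 clusters of 2 genes. Mir181a-1 and Mir181b-1 lie on chromosome 1, Mir181a-2 and Mir181b-2 on chromosome 2, and Mir181c and Mir181d on chromosome 8. The members were taken by gene symbol, and all 6 were found among the 1973 miRNA genes of the deposited tables. Small RNA of less than 30 bases had been sequenced from whole midbrain of healthy B6NCrl mouse embryos, male and female pooled, at 15.5 days of development. Replicate 1 was a pool of 78 embryos and replicate 2 a separate pool of 62. The study has no second tissue, age or genotype, so the comparisons are among the genes, among the clusters and between these 2 libraries. In a whole tissue, fewer cells of a type and less RNA per cell cannot be told apart.

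A miRNA gene is transcribed into a hairpin, from which Drosha and Dicer release a short duplex of a 5p and a 3p form. The form loaded into an Argonaute protein pairs with messenger RNAs mainly through its seed, bases 2 to 8 from the 5′ end, and lowers the output of those messengers. The Mir181 family is best known from lymphocytes, where miR-181a tunes the sensitivity of the T cell receptor, and it has also been studied in neurons, astrocytes and the retina.

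The 6 hairpins encode 4 distinct 5p forms, because each of miR-181a-5p and miR-181b-5p is made from 2 genes. They are shown because they define the family and because identical forms cannot be traced to a gene. Sequences are RefSeq's for GRCm38.p6, read 5′ to 3′, with the seed in capitals.
miR-181a-5p (Mir181a-1 and Mir181a-2): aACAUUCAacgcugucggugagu
miR-181b-5p (Mir181b-1 and Mir181b-2): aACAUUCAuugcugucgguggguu
miR-181c-5p (Mir181c): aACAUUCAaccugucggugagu
miR-181d-5p (Mir181d): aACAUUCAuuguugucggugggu

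All 4 forms carry the seed ACAUUCA, and no gene of the RefSeq miRNA table other than the 6 members carries it. Outside the seed they fall into 2 pairs. The pair of miR-181a-5p and miR-181c-5p differs by an edit distance of 1, and the pair of miR-181b-5p and miR-181d-5p by an edit distance of 2, being C12U (position counted from the 5′ end of miR-181b-5p) and a difference of 1 base in length. Across these pairs the edit distance is 4 or 5. Each of the 3 clusters thus encodes an a or c form next to a b or d form.

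The 3p forms, in contrast, are distinct for all 6 genes. They are printed because they are the mature sequences by which the copies can be told apart.
miR-181a-1-3p (Mir181a-1): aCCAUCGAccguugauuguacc
miR-181a-2-3p (Mir181a-2): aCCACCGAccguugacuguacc
miR-181c-3p (Mir181c): aCCAUCGAccguugaguggacc
miR-181b-1-3p (Mir181b-1): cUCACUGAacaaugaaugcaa
miR-181b-2-3p (Mir181b-2): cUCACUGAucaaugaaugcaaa
miR-181d-3p (Mir181d): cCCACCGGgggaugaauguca

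Counted from the 5′ end of the first-named form, miR-181a-1-3p and miR-181a-2-3p differ by U5C and U16C, the first of which lies in the seed. The 3p forms of Mir181a-1 and Mir181c share the seed CCAUCGA and differ by U16G and U19G. Those of Mir181b-1 and Mir181b-2 share the seed UCACUGA and differ by A9U and by 1 base in length. The seeds of the 3p forms of Mir181a-2 and Mir181d occur in no other gene of the RefSeq miRNA table.

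Within the hairpins, exact matches of 20 bases or more between copies were limited to the 5p arm and its borders. Mir181a-1 and Mir181a-2 have a run of 28 bases in common, reaching from 1 base before to 4 bases after the mature 5p form. Mir181b-1 and Mir181b-2 have a run of 26 bases in common, which starts 2 bases before the mature 5p form and ends with its last base. Of all 20-base windows of the hairpins, 9 of 68 in Mir181a-1, 9 of 57 in Mir181a-2, 7 of 61 in Mir181b-1 and 7 of 70 in Mir181b-2 recur in another miRNA transcript, in each case the other copy alone. None of the 70 windows of Mir181c or the 53 of Mir181d does.

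**Figure D1:**
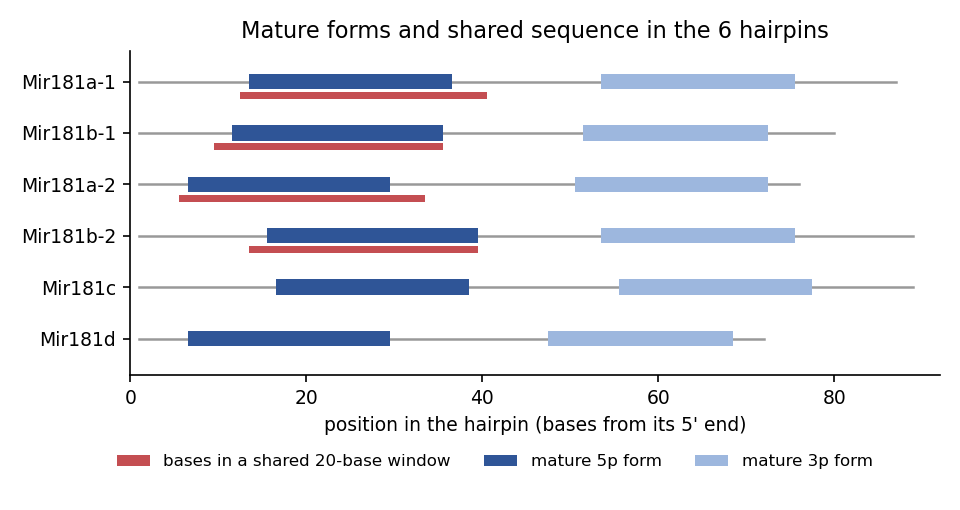
Each line is a hairpin of the GENCODE M21 annotation, drawn to scale in bases from its 5′ end, with the mature 5p form in dark blue, the mature 3p form in light blue and the bases that fall in a 20-base window found in another miRNA transcript in red. The shared stretch spans 28 bases in the Mir181a copies and 26 in the Mir181b copies, covers the 5p form in those 4 genes, reaches no base of a 3p form, and is missing from Mir181c and Mir181d.

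Reads with several mapping places are tallied in a row of their own in the deposited tables, and they numbered 0.83 times the sense gene reads in replicate 1 and 0.82 times in replicate 2. The tables do not say which miRNAs these reads belong to, nor from which arm of a hairpin a counted read came. The gene counts leave these reads out. A read of exactly the miR-181a-5p form matches both Mir181a-1 and Mir181a-2, and one of miR-181b-5p both Mir181b-1 and Mir181b-2. Leaving such reads out can lower the counts of these genes and cannot raise them. The 5p forms of Mir181c and Mir181d are in no other miRNA transcript. Levels of the Mir181a and Mir181b genes are therefore uncertain, as is their order against Mir181c and Mir181d. The part of such reads in the differences below was not tested.

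In mm10 (GRCm38) coordinates of GENCODE M21, Mir181a-1 occupies chromosome 1 from 137966455 to 137966541 on the plus strand, with Mir181b-1 at 137966639 to 137966718, 97 bases further on. Both lie in the noncoding gene Gm4258 outside its exons, and on the same strand as the long noncoding RNA A430106G13Rik, whose exon covers the last 11 bases of Mir181a-1 and all 80 of Mir181b-1. Mir181a-2 is on chromosome 2 at 38852735 to 38852810 and Mir181b-2 at 38853830 to 38853918, both on the plus strand and 1019 bases apart. They lie opposite an intron of Nr6a1, which encodes an orphan nuclear receptor, and no gene overlaps them on their own strand. Mir181b-2 also lies opposite an exon of the unclassified transcript Gm44144. Mir181c, at 84178873 to 84178961 on chromosome 8, and Mir181d, at 84178716 to 84178787, are on the minus strand with 85 bases between them. Both sit in an intron of Nanos3, named for the germ cell RNA-binding protein it encodes. The tables carry version 1 of the Mir181c identifier and the annotation version 2.

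The libraries held 3429704 and 5752476 sense reads on miRNA genes in replicates 1 and 2, so that 1 read was worth 0.292 and 0.174 CPM (counts per 1000000 sense gene counts). Among markers of the tissue, 9 of 10 neuronal genes reached 1 CPM in the mean of the libraries. The list held 1.88% and 2.03% of counts, with Mir137 highest at 10800.1 and 11585 CPM. Its Mir124a genes had low counts: Mir124a-1 and Mir124a-2 averaged 3.69 and 3.26 CPM, and Mir124a-3 stayed below 1 CPM. Gene counts leave out reads with several mapping places. For genes with copies, in this and the following lists, a low count therefore does not show that a mature form was scarce. All 5 of the 6 progenitor genes found in the table (Mir9-1 was not matched) reached 1 CPM, and the list held 2.46% and 2.50%. Of other tissues, vessel genes held 3.13% and 2.74%, led by Mir126a, choroid plexus genes 0.115% and 0.151%, sensory genes 0.186% and 0.141%, and Hox genes 0.101% and 0.148%. White cell genes held 0.0334% and 0.0319%, without Mir142a, which was not matched, and with Mir142b at 0 on its own strand. The strand opposite Mir142b, a locus that RefSeq's Mir142 (synonym mir-142a) overlaps, had 778 and 1207 reads, or 227 and 210 per 1000000 sense gene counts, which the list leaves out. Red cell genes held 0.0197% and 0.0208% and muscle genes 0.00117% and 0.00160% with Mir1a-1, Mir133a-1 and Mir133a-2 at 0 and Mir1a-2 not matched. Which of these cells the Mir181 reads came from was not tested.

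The Mir181 family was an abundant group in the midbrain, with 3.20 ± 0.152% (SD, n = 2) of all sense counts. It held 3.09% in replicate 1 and 3.31% in replicate 2. All 6 genes were detected in both libraries, but their mean levels ran from 15.7 to 15009.7 CPM. Levels here are CPM of sense counts and are not divided by gene length, since the mature forms that the reads stand for are all 21 to 24 bases long.

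By assigned counts, Mir181c, the source of miR-181c-5p, was the highest member. It had 49068 counts or 14307 CPM in replicate 1 and 90387 counts or 15713 CPM in replicate 2, a mean of 15009.7 ± 994 CPM (SD, n = 2). Its rank among all 1973 genes was 14 in either library. Mir181d, its neighbour, had 8107 and 9136 CPM (mean 8621 ± 728, ranks 26 and 22). The lower Mir181c value lies above the higher Mir181d value, so these genes do not overlap.

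Mir181a-1 followed, at 5619 and 5643 CPM, with 19271 and 32461 counts (mean 5631 ± 17.0 CPM, ranks 33 and 35). It was the most evenly counted of the 6 genes in terms of CPM, with a coefficient of variation of 0.303%. Mir181b-2 was next at 1867 and 2118 CPM (mean 1992 ± 177, rank 72 in both libraries). Mir181a-2 had 1015 CPM in replicate 1 and 461 CPM in replicate 2, from 3481 and 2653 counts, so that its lower count came from the deeper library. Its mean of 738 ± 392 CPM had a coefficient of variation of 53.1%, against 0.303% to 8.89% for the other 5 genes.

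Mir181b-1 was the lowest by a wide margin. It had 53 counts or 15.5 CPM in replicate 1 (95% exact Poisson interval 11.6 to 20.2) and 92 counts or 16.0 CPM in replicate 2 (12.9 to 19.6). That is above the floor of 3 counts (0.875 and 0.522 CPM) in either library, with ranks of 294 and 293.

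The order Mir181c, Mir181d, Mir181a-1, Mir181b-2, Mir181a-2, Mir181b-1 was the same in both libraries, and no pair of neighbours in it overlapped. The ratios of neighbouring means were 1.74, 1.53, 2.83, 2.70 and 46.9 down this order. The steps on either side of Mir181a-2 varied most in proportion: Mir181b-2 exceeded it by 1.84-fold in replicate 1 and 4.59-fold in replicate 2, and it exceeded Mir181b-1 by 65.7-fold and 28.8-fold. The order is of assigned counts, which leave out reads with several mapping places. Mir181c and Mir181d share no 5p form with another gene, so the order ranks counts of unlike reads. No test of this order was run.

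**Figure D2:**
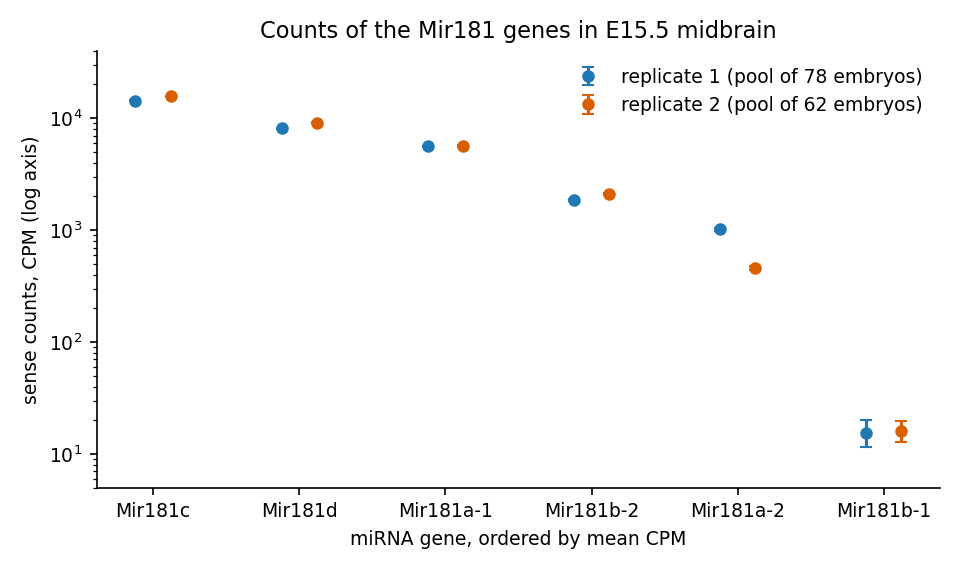
Sense counts of the 6 Mir181 genes in CPM on a log axis, one point per library with its 95% exact Poisson interval (counting error only, mostly smaller than the point). The points of a gene lie close together except for Mir181a-2, at 1015 CPM in replicate 1 and 461 CPM in replicate 2, and Mir181b-1 stands alone near 16 CPM.

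Reads opposite to the members were almost absent. Mir181a-2 had 1 such count in replicate 1, and every other value was 0, a count that allows up to 3 counts as a one-sided 95% bound.

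By cluster, the genes on chromosome 8 held most of the family's assigned counts. Mir181c and Mir181d together had 72.5% of them in replicate 1 (95% exact Clopper-Pearson interval 72.2 to 72.7) and 75.1% in replicate 2 (74.9 to 75.3), or 73.8 ± 1.86% (SD, n = 2). The chromosome 1 cluster had 18.2% (17.98 to 18.45) and 17.1% (16.9 to 17.3), nearly all from Mir181a-1. The chromosome 2 cluster had 9.32% (9.14 to 9.49) and 7.79% (7.67 to 7.92). The order of the clusters was the same in both libraries, and their shares differed from each other by far more than the libraries did.

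In CPM, the chromosome 8 cluster had 22413 in replicate 1 and 24848 in replicate 2 (23631 ± 1722, SD, n = 2), the chromosome 1 cluster 5634 and 5659 (5647 ± 17.4) and the chromosome 2 cluster 2882 and 2579 (2731 ± 214). On the log2 scale of replicate 2 over replicate 1 after scaling, these are 0.12, -0.027 and -0.19, and the whole family stood at 0.064, or 0.092 without Mir181a-2. Summed over copies in place of clusters, the Mir181a genes had 6634 and 6104 CPM of assigned counts and the Mir181b genes 1883 and 2134 CPM. The 4 genes whose 5p form has a copy thus held 27.5% and 24.9% of the family's assigned counts. Reads that match both copies are left out of these sums, so the sums are not levels of miR-181a-5p or miR-181b-5p.

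**Figure D3:**
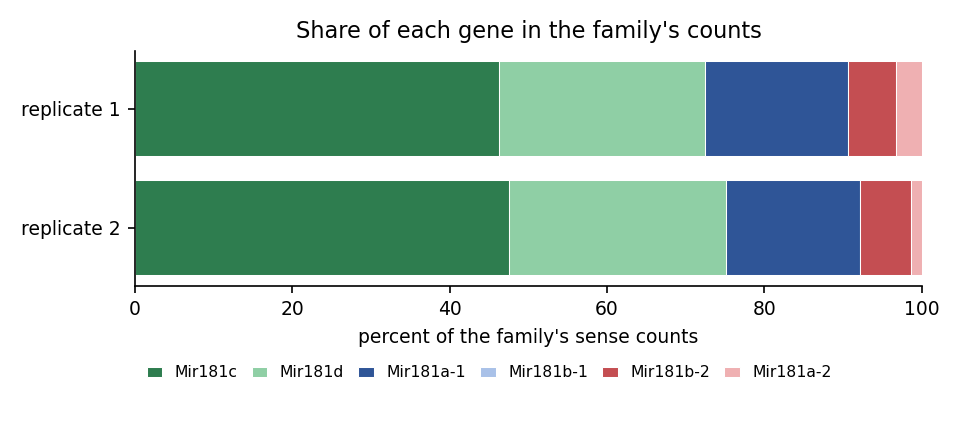
Each bar is a library, divided by the percent of the family's sense counts that fell on each gene, with Mir181c and Mir181d (chromosome 8) in green, Mir181a-1 and Mir181b-1 (chromosome 1) in blue and Mir181b-2 and Mir181a-2 (chromosome 2) in red. The green genes make up 72.5% and 75.1%, Mir181a-2 goes from 3.28% to 1.39%, and Mir181b-1, at about 0.05%, is too thin to see.

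The clusters differed in how their genes compared with each other. On chromosome 8, Mir181c exceeded Mir181d by 1.76-fold in replicate 1 and 1.72-fold in replicate 2 (log2 ratio 0.82, 95% counting interval 0.80 to 0.84, and 0.78, 0.77 to 0.80). On chromosome 1, Mir181a-1 exceeded Mir181b-1 by 364-fold and 353-fold (log2 ratios 8.51, 8.12 to 8.92, and 8.46, 8.17 to 8.77). On chromosome 2 the order was the opposite: Mir181b-2 was the higher gene, by 1.84-fold and 4.59-fold (log2 ratios of Mir181a-2 over Mir181b-2 of -0.88, -0.94 to -0.82, and -2.20, -2.26 to -2.14). The a gene was thus above its b neighbour on chromosome 1 and below it on chromosome 2 in both libraries. The ratios are not of like reads in every cluster. On chromosomes 1 and 2 each 5p form is shared with a copy on the other chromosome, and on chromosome 8 it is not. The part of this in the differences between clusters was not tested.

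The copies of a 5p form also stood far apart. Mir181a-1 exceeded Mir181a-2 by 5.54-fold in replicate 1 and 12.2-fold in replicate 2. Mir181b-2 exceeded Mir181b-1 by 121-fold and 132-fold. The higher copy was therefore on chromosome 1 for miR-181a and on chromosome 2 for miR-181b. Since copies share the whole of their 5p form, reads of that form alone cannot distinguish them, and these ratios describe the reads that were assigned.

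Between the libraries, the ratio within the cluster shifted by 1.03-fold on chromosomes 1 and 8 and by 2.50-fold on chromosome 2. The log2 ratio of Mir181c over Mir181d changed by -0.037 from replicate 1 to replicate 2 (95% counting interval -0.063 to -0.011), and that of Mir181a-1 over Mir181b-1 by -0.043 (-0.53 to 0.44), an interval made wide by the few counts of Mir181b-1. The log2 ratio of Mir181a-2 over Mir181b-2 changed by -1.32 (-1.40 to -1.23). Among the 65 pairs of adjacent miRNA genes on a strand, no more than 10 kb apart and both averaging 100 CPM or more, this was the largest absolute change. The next was 0.44, for Mir421 and Mir374b on the same scale, and the median was 0.11. The Mir181a-1 and Mir181b-1 pair is outside this set because Mir181b-1 lies below 100 CPM.

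**Figure D4:**
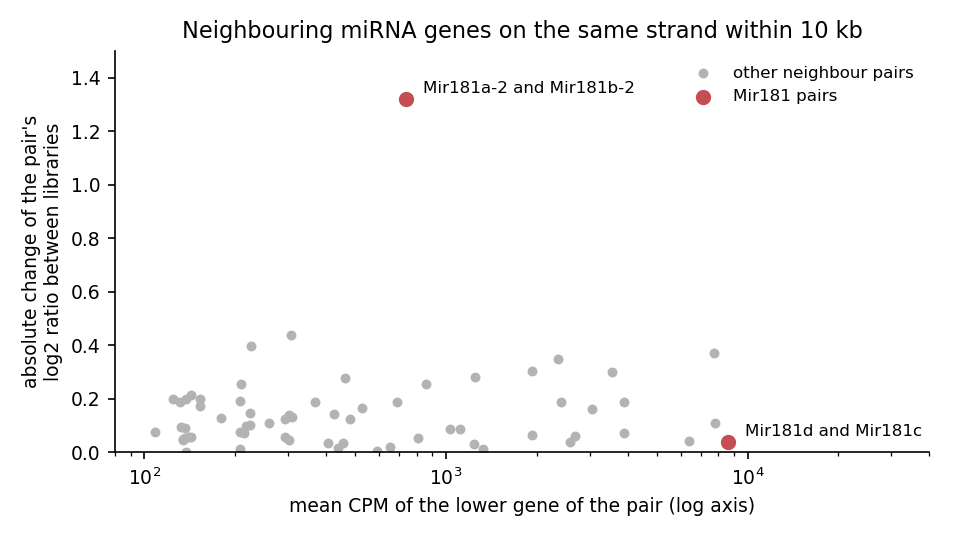
Each point is a pair of adjacent miRNA genes on the same strand, with the mean CPM of its lower gene on a log axis and the absolute change of the pair's log2 ratio between the libraries. Mir181a-2 and Mir181b-2 changed by 1.32, the 64 other pairs by at most 0.44, and Mir181d and Mir181c by 0.037.

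Copies were compared in the same way. Of the 10 pairs of numbered copies with both genes averaging 100 CPM or more, Mir181a-1 and Mir181a-2 showed the largest change of log2 ratio between the libraries, 1.14. The next was 0.23, for Mir219a-1 and Mir219a-2, and the median of the 10 was 0.13. The Mir181a pair also had the largest fold difference in level of the 10, 8.23 as the geometric mean of the libraries, followed by 6.09 for Mir16-1 and Mir16-2. The ratio of the Mir16 copies changed between the libraries by 0.051 on the log2 scale. The limit of 100 CPM on both genes leaves out pairs with 1 low copy, and such pairs can differ more. Mir181b-2 and Mir181b-1, 121-fold and 132-fold apart in replicates 1 and 2, are outside the set for this reason.

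Gene by gene, Mir181a-2 was the member that differed most between the libraries. Its log2 ratio of replicate 2 over replicate 1, after TMM scaling and with a pseudocount of 1 CPM, was -1.17 (95% counting interval -1.24 to -1.10), or 2.25-fold higher in replicate 1 (adjusted p = 9.60e-218, two-sided conditional exact binomial test, Benjamini-Hochberg over 717 genes). It had the largest absolute log2 ratio among the 203 genes that averaged 100 CPM or more. Marker genes of other tissues also differed between the pools, where 57.1% of these 203 genes passed the same exact test. Of the Hox list, Mir10a had 649 and 917 CPM and Mir10b 339 and 532 CPM, higher in replicate 2. Of the sensory list, Mir182 had 907 and 628 CPM and Mir183 718 and 599 CPM, higher in replicate 1. So was Mir126a of vessels at 24909 and 21568 CPM, while Mir145a of that list, at a log2 ratio of 0.058, did not pass. Of the choroid plexus list, Mir204 had 1129 and 1497 CPM, higher in replicate 2, and Mir211 did not pass. The part of such tissues in the Mir181a-2 difference was not tested. Its cluster neighbour Mir181b-2 lay on the other side, at 0.15 (0.10 to 0.19, adjusted p = 2.71e-10 in the same exact test).

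Mir181c and Mir181d were slightly higher in replicate 2, at log2 ratios of 0.10 (0.086 to 0.12, adjusted p = 3.97e-35 in the exact binomial test) and 0.14 (0.12 to 0.16, adjusted p = 1.81e-37 in the exact binomial test). These are folds of 1.07 and 1.10, close to the median absolute log2 ratio of 0.12 among genes averaging 100 CPM or more. Neither Mir181a-1 (-0.027, adjusted p = 0.155 in the exact binomial test) nor Mir181b-1 (0.015, counting interval -0.49 to 0.53, adjusted p = 1) passed the exact test, and the wide interval of Mir181b-1 leaves its difference unresolved at this depth.

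In all, 4 of the 6 members passed at an adjusted p below 0.05, 3 higher in replicate 2 and 1 higher in replicate 1. Over the 717 genes tested 19.8% passed, 9.76% toward replicate 2 and 10.04% toward replicate 1, and among the 203 genes averaging 100 CPM or more, 57.1% passed. Of the 6 members, 5 are among these 203 genes and 4 of the 5 passed. A call was thus common among genes of this depth, and the members' count is no result about the family. The test compares these 2 libraries and covers counting error only. In edgeR's exact test with a coefficient of variation of 10%, a spread that was assumed and not estimated from these pools, 0.418% of genes passed. Mir181a-2 passed and the other 5 members did not, a call that follows from the assumed spread as well as from the counts.

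**Figure D5:**
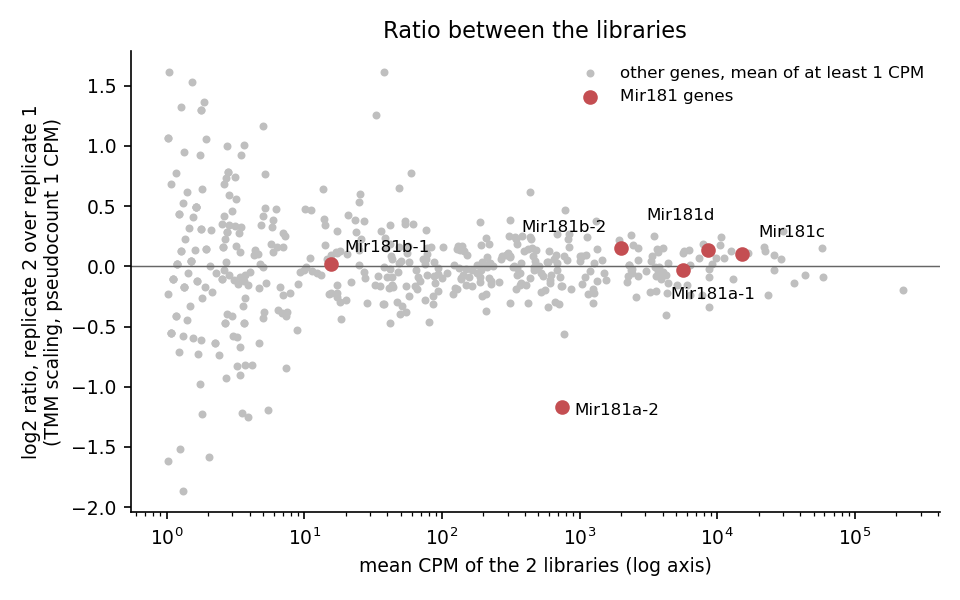
Each point is a gene averaging 1 CPM or more, by its mean CPM on a log axis and its log2 ratio of replicate 2 over replicate 1. The Mir181 genes in red lie between -0.027 and 0.15 except Mir181a-2 at -1.17.

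The genes nearest to each member in level, by the larger of the differences in log2(CPM + 1) in the 2 libraries, were Mir26b for Mir181c (15823 and 17479 CPM, difference 0.15) and Mir20a for Mir181d (8726 and 8799.5 CPM, 0.11). Mir130b was nearest to Mir181a-1 (5377 and 5955 CPM, 0.078), Mir433 to Mir181b-2 (1769 and 2101 CPM, 0.078) and Mir1968 to Mir181b-1 (14.9 and 16.3 CPM, 0.052). For Mir181a-2 the nearest gene was Mir182, at 907 and 628 CPM, and the difference of 0.44 was several times that of the other members.

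The Mir181 copies were set beside miRNA genes of comparable structure. Of the 916 genes matched to RefSeq mature forms, 53 have some forms that are identical in another gene and some that are not, as the 4 Mir181 copies do. In this class 42 genes reached 1 CPM, with a median of 134 CPM among these. Mir181a-1 ranked first of the 53, Mir181b-2 sixth, Mir181a-2 at 11 and Mir181b-1 at 31, the last of these below the class median of 44.1 CPM over all 53. Of the 829 genes with no form in common with another gene, as Mir181c and Mir181d, 376 reached 1 CPM, with a median of 49.2 CPM. Of the 34 with every form shared, 8 did, with a median of 150 CPM.

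The 117 numbered copies other than Mir181 genes had 47 members at 1 CPM or more. Of the 117, 57 had a count and were tested, and the exact binomial test called 6 of these toward replicate 2 and 10 toward replicate 1, beside 9.76% and 10.04% of all genes tested, with a median log2 ratio of -0.0044 over the 47. The median of the 6 Mir181 genes was 0.058 and that of the 474 genes reaching 1 CPM -0.0023. Of the 9 miRNAs that are studied with Mir181 in blood and lymphoid cells, 8 were matched in the table, Mir92a-1 and Mir146a by the symbols Mir92-1 and Mir146, and 7 reached 1 CPM. Mir17, of the Mir17 cluster, was the highest of them at 24783 and 27113 CPM and the only gene of the list called toward replicate 2 by the exact binomial test (log2 ratio 0.096). Mir92-1, at 1362 and 1129 CPM (log2 ratio -0.30), and Mir146, at 94.5 and 77.5 CPM (-0.31), were called toward replicate 1. Mir155 had 102 and 97.2 CPM, Mir223 had 161 and 155 CPM, and the median log2 ratio of the 7 was -0.099.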

How the data were processed

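The data are 2 small RNA libraries of 1 group. The authors deposited whole read counts per miRNA gene, without normalization, in 3 columns for either strand, the sense strand and the antisense strand. The assembly is mm10 and the annotation GENCODE M4, per the readme deposited with the tables. For the aligner and the counter, the name is not given in the sources used here. Library sizes and tests left out the 4 rows that name no gene, which held in replicates 1 and 2 respectively 13.4% and 16.9% (unmapped), 37.7% and 35.8% (several mapping places), 3.57% and 3.43% (outside genes) and 0% (ambiguous) of reads.

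Symbols and positions came from GENCODE M21 on the same assembly (1894 of 1973 identifiers matched), and listed genes not found by symbol were looked up among RefSeq synonyms. CPM are sense counts scaled to the total over genes. Scaling between libraries used TMM of edgeR 4.0.16. Every gene with a count was tested by a two-sided conditional exact binomial test (scipy 1.17.1) with Benjamini-Hochberg adjustment. The test was first tried on simulated Poisson counts with known library sizes. That simulation had no spread between pools and no TMM step, so it cannot tell how the test behaves with either. Intervals at 95% and floors cover counting error only, since reads are not independent molecules, and the spread is that of 2 pools. Intervals of a change in ratio come from the log odds ratio.

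Named genes were the members, the gene nearest in level to each, and up to 2 of the highest of each list; the runner-up pairs Mir421 and Mir374b, the Mir219a copies and the Mir16 copies, the genes at 0, Mir92-1, Mir146 and other list members were named after their values were seen. The members and lists were chosen with earlier results of these data known. Windows of 20 bases were compared, on both strands, among all miRNA transcripts of GENCODE M21; the rest of the genome was not searched. Alternatives were the unstranded counts, other totals and scalings (DESeq2 1.42.0 size factors, total counts, upper quartile), pseudocounts of 0.1 and 10, filters at 1 and 10 CPM, edgeR's exact test, windows of 18 and 25 bases, and leaving out each replicate.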

Additional observations from a re-analysis of the deposited data

How the results depend on the processing

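Of 152 recomputed values, 131 kept their direction and their side of the threshold or stayed within the spread of the libraries, 18 moved and 3 lost their call. With reads of several mapping places added to the library total, the mean levels were 3097 CPM for the chromosome 1 cluster, 1497 CPM for chromosome 2, 12964 CPM for chromosome 8 and 17558 CPM for the family, because the total is larger. With counts regardless of strand the chromosome 1 cluster had 5517 CPM, a shift larger than its small spread. The mean log2 ratio of Mir181a-1 over Mir181b-1 was 7.78 with a pseudocount of 10 CPM and 8.40 with 1 CPM, the latter chosen after seeing the data. When edgeR's exact test took an assumed 10% coefficient of variation, 3 genes in place of 142 passed, 1 member in place of 4, and 0 members were higher in replicate 2, as Mir181b-2, Mir181c and Mir181d lost their calls. The log2 ratio of Mir181a-2 ranged from -1.18 to -1.14 over all alternatives. That of Mir181a-1, which was not called in any, turned to 0.0062 with total counts. Without either replicate, levels, shares and ratios within the clusters stayed within 1 SD, which with 2 libraries holds by construction. A pseudocount does not enter the exact test and could not change a call. The values of both kinds are among the 131 and say nothing about stability. A test between libraries needs both, so none was made with a replicate left out. No paired analysis was possible because there is 1 group. Few counts limit Mir181b-1, and only 2 pools were sequenced.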
